A study of Homo sapiens with 9 samples.

Results

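Interferon-stimulated genes are the genes that cells switch on after interferon binds its receptors. This account follows 42 of them, taken as a list of symbols and matched by symbol in the deposited gene table. The list was chosen with earlier results of these data known. The 42 were among 60605 gene identifiers, and 41 of them had enough counts to be tested beside 20655 genes in all. The gene that was not tested was OASL. RNA was sequenced from KG-1a, a cell line from a human acute myeloid leukaemia with a blood progenitor character. The 9 libraries formed 3 groups of 3, namely PRMT2 KO clone 1, PRMT2 KO clone 2 and WT cells with intact PRMT2. PRMT2 encodes a protein arginine methyltransferase, and both clones were made with CRISPR/Cas9 and PRMT2-targeting crRNAs. All 3 groups grew in the same medium with fetal bovine serum, and none received a drug. Each KO group is 1 clone. Whether the WT cells came from a single cell, and whether replicates were separate cultures, is not in the labels. The p-values therefore cover the spread among these libraries, which may be technical.

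Type I and type III interferons signal through the kinases JAK1 and TYK2 to a complex that holds STAT2 and IRF9, which binds the interferon-stimulated response element (ISRE) upstream of its target genes. Interferon gamma signals through JAK1 and JAK2 to factors that bind the gamma-activated site (GAS). The products restrict viruses at entry, in the cytosol, in RNA processing and at budding, and many blood cells keep a low tonic level of them without infection.

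Many of the members with a known promoter carry an ISRE core there. The stretches below are shown because they hold such a core in genes that moved in different ways in the clones. The ISRE core searched was GAAANNGAAA on both strands, within the 250 bases upstream of each start in RefSeq promoters of GRCh38.p14, and 31 of the 42 members had a promoter there. It was present in 21 of those 31 members (67.7%), against 3.71% of all 27305 genes with a promoter. The GAS letters, TTCNNNGAA, which read the same on both strands, were present in 9 of the 31 members (29.0%), against 8.09% of all genes. Both motifs stood in 1 window in 6 members, and the matches overlapped in 4 of them. Capitals mark the ISRE core in either orientation, and each sequence is written 5′ to 3′ on the strand of its gene.
IFITM3: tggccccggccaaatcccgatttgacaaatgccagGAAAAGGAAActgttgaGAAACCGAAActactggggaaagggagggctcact
IFITM1: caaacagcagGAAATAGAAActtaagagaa
GBP1: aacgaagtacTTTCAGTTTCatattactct
IFI44L: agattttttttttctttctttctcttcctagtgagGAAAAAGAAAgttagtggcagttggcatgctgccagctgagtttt
EPSTI1: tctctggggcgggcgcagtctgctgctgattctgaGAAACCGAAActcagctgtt
PARP14: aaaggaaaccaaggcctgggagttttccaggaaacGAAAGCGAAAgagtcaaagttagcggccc
IFIT3: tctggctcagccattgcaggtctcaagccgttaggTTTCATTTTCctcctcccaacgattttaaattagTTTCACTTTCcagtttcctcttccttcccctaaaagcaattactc
IFIT1: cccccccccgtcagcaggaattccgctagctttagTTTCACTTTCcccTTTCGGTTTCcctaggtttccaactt
IFI6: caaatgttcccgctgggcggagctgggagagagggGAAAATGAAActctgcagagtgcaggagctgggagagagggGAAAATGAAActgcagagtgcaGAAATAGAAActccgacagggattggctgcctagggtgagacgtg
The windows lie on GRCh38.p14 at chr11:320861-320947 on the minus strand for IFITM3, chr11:313990-314019 on the plus strand for IFITM1 and chr1:89065316-89065345 on the minus strand for GBP1. IFI44L is at chr1:78620249-78620328 on the plus strand, EPSTI1 at chr13:42992272-42992326 on the minus strand and PARP14 at chr3:122680775-122680838 on the plus strand. IFIT3 is at chr10:89327806-89327919 on the plus strand, IFIT1 at chr10:89392472-89392545 on the plus strand and IFI6 at chr1:27672241-27672383 on the minus strand. The cores of IFITM1 and GBP1 fall in an annotated exon, and the cores shown for the other 7 genes do not. The neighbours IFITM1 and IFITM3, whose levels moved in opposite directions in the clones, both hold the core, and so do IFIT3, which fell in both clones, and IFIT1, which passed the test in neither.

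PRMT2 itself fell to 52.6% and 53.9% of the WT level, with 21.3, 20.2 and 20.7 CPM in KO clone 1, 21.4, 21.1 and 21.2 CPM in KO clone 2, and 39.4, 39.0 and 39.8 CPM in WT. Both clones lay below WT without overlap. RNA counts do not show whether PRMT2 protein was lost, and whether the remaining RNA carries an edit was not tested. Levels are given with their SD over the 3 libraries of a group, and log2 fold changes of KO over WT with their SE. A gene is said to have risen or fallen when its Benjamini-Hochberg adjusted p in edgeR's quasi-likelihood test, over all 20655 genes, was under 0.05. The log2 fold changes of PRMT2 were -0.93 ± 0.055 in KO clone 1 and -0.89 ± 0.054 in KO clone 2, and the clones differed by 0.04 ± 0.057 (adjusted p = 0.708). The blood progenitor markers CD34, PTPRC, SPN and CD7 were expressed in all groups. Together they held 2204 to 2254 CPM in KO clone 1, 2183 to 2247 CPM in KO clone 2 and 2166 to 2215 CPM in WT. Within this list CD34 rose in both clones (0.23 ± 0.038 and 0.29 ± 0.038, edgeR adjusted p = 3.2e-06 and 4.88e-08), with all 6 KO libraries above WT, and PTPRC fell in both (-0.12 ± 0.037 and -0.18 ± 0.037, adjusted p = 0.00799 and 0.000131). The B cell, erythroid and epithelial markers, each list taken alone, summed to at most 1.61 CPM in any library. The 7 monocyte and dendritic markers summed to 9.20 to 10.1 CPM in KO clone 1, 8.72 to 9.26 CPM in KO clone 2 and 8.87 to 9.24 CPM in WT. Among them CSF1R had 0.0366, 0.0310 and 0.0614 CPM in KO clone 1, 0.218, 0.587 and 0.397 CPM in KO clone 2, and 0.261, 0.366 and 0.555 CPM in WT, and it fell in KO clone 1 (edgeR adjusted p = 0.000291), where it lay under the level of 3 counts. The 5 fibroblast and endothelial markers summed to 53.0 to 56.0 CPM in KO clone 1 and 57.2 to 61.2 CPM in KO clone 2, against 26.4 to 27.6 CPM in WT. Nearly all of that was PECAM1, an adhesion molecule that blood cells also carry, which had 55.3, 53.0 and 52.4 CPM in KO clone 1, 60.6, 59.8 and 56.5 CPM in KO clone 2, and 25.7, 27.2 and 25.8 CPM in WT. It rose in both clones (1.03 ± 0.047 and 1.17 ± 0.046), while the endothelial cadherin CDH5 had 0 counts in every library. The part of these marker changes in the results on the members was not tested. Depth was 28006342 to 43149410 counted read pairs, at which 3 counts correspond to 0.0701 to 0.110 CPM, and this floor covers counting error only. KO clone 1 replicate 1 stood apart, with 13.3% of its pairs in multiple mappings, where the 8 remaining libraries had 3.86% to 4.51%. It also had 13440 CPM of the mitochondrial rRNA MT-RNR1, against 14.8 to 52.0 CPM elsewhere.

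As a group the interferon-stimulated genes were lower in both PRMT2 KO clones. CPM values are counts relative to the scaled library total. Those of the 42 members summed to 1584 to 1607 in KO clone 1 and 1780 to 1808 in KO clone 2, against 2254 to 2288 in WT. No KO library reached the lowest WT library. In bulk RNA, fewer expressing cells and less RNA per cell cannot be told apart. By the adjusted p, 27 members fell in KO clone 1 (65.9% of the 41 tested), against 18.8% of all genes tested, and 3 rose, against 17.4%. In KO clone 2, 31 fell (75.6%), against 16.1% of all genes, and 2 rose, against 14.4%. Both clones share the same WT libraries. The members were chosen with earlier results of these data known, so these shares describe the list and are not an independent test. The median log2 fold change of the members was -0.51 in KO clone 1 and -0.33 in KO clone 2, where that of all genes tested was 0.00 in either clone. Without KO clone 1 replicate 1, 27 members fell and 3 rose in KO clone 1, and their median was -0.54.

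**Figure D1:**
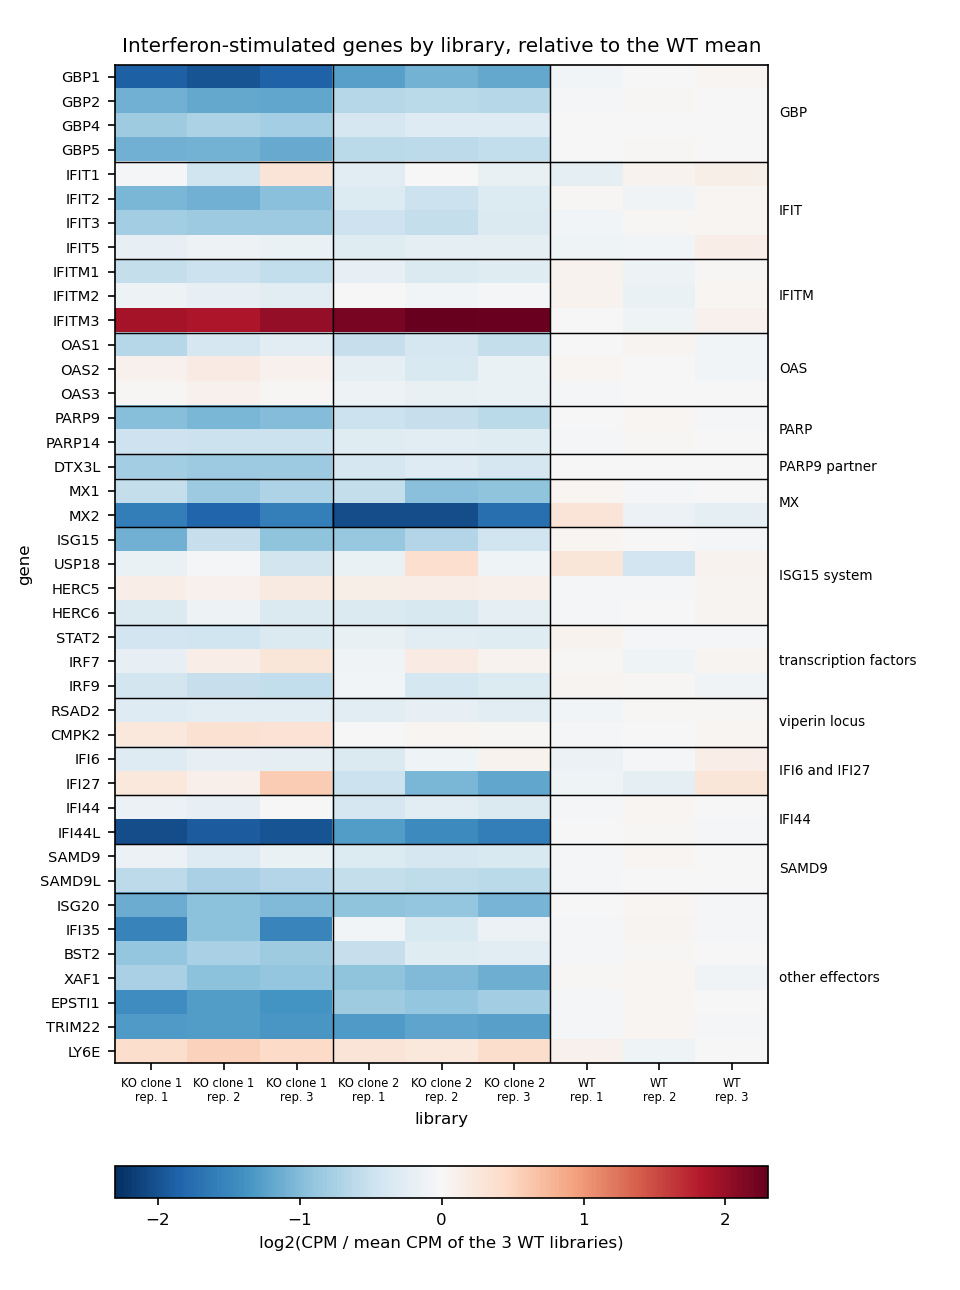
Level of the 41 tested members in each library (columns, KO clone 1, KO clone 2 and WT) as log2 of CPM over the mean of the 3 WT libraries, with genes in rows by family. Blue is lower and red is higher than WT, and the darkest blue rows are IFI44L, GBP1 and MX2 in KO clone 1 and MX2, IFI44L and TRIM22 in KO clone 2. IFITM3 is the darkest red row in both, and LY6E is a paler one.

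Read member by member, 25 fell in both clones (61.0% of those tested, against 11.0% of all genes), and 2, IFITM3 and LY6E, rose in both (4.88%, against 8.52% of all genes). Another 9 passed the test in 1 clone only, and IFIT1, USP18, HERC5, IRF7 and IFI6 passed in neither. In 27 of the 41, all 6 KO libraries lay below all 3 WT libraries, which was so for 13.7% of all genes. IFITM3, HERC5 and LY6E were the 3 members with all 6 KO libraries above WT (7.32%, against 11.2% of all genes). The falls were mostly modest. With a minimum absolute log2 fold change of 1 added, 11 members were called lower in KO clone 1 (26.8%, against 4.98% of all genes) and 5 in KO clone 2 (12.2%, against 4.13%). IFITM3 was the single member called higher in each (2.44%, against 2.60% and 1.83%). GBP1, MX2, IFI44L and TRIM22 were called lower in both clones (9.76%, against 3.04%), and IFITM3 higher in both (2.44%, against 1.30%). Taking the mean of the clones over WT, 30 members fell (73.2%, against 18.9% of all genes) and 4 rose (9.76%, against 16.4%). The p-values of this contrast do not cover the spread between the clones. In it GBP1, MX2, IFI44L, EPSTI1 and TRIM22 were called lower (12.2%, against 4.53%) and IFITM3 higher (2.44%, against 2.00%). ISG20 lay just short of the fold minimum there and was called lower in 8 of 16 alternative settings, over which its log2 fold change ran between -1.02 and -0.97. Among the 8 were leaving out KO clone 1 replicate 2, KO clone 2 replicate 1 or 2, or WT replicate 3. The authors' deposited table sets both clones together against WT with DESeq2 and holds counts made without regard to strand. There IFI35 (adjusted p = 0.326), IFITM2 (0.398), CMPK2 (0.263), OAS1 (0.198), HERC5 (0.097), IFI44 (0.0619) and IFIT5 (0.0595) did not pass. All of these passed here in the mean of the clones, whose p-values do not cover the spread between the clones. IFITM2 (edgeR adjusted p = 0.0401) no longer passed there in 7 of 16 alternative settings, DESeq2's test among them (adjusted p up to 0.3). OAS1 (adjusted p = 0.0174) no longer passed in 3 of 16 (up to 0.076). The limits for HERC5 and IFIT5 are given below. The other members that passed in that mean passed in the authors' table too.

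**Figure D2:**
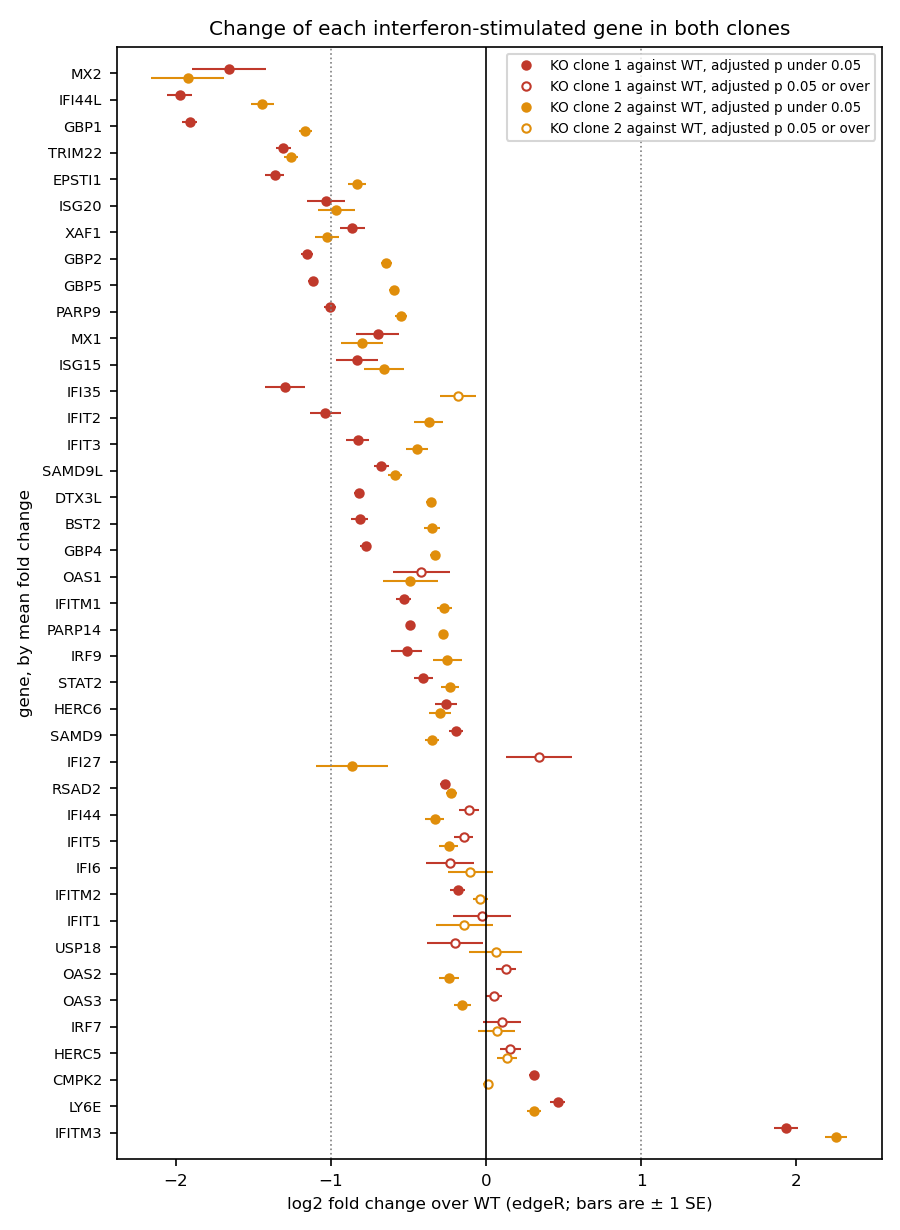
Log2 fold change over WT of each tested member in KO clone 1 (red) and KO clone 2 (orange), ordered by the mean of both, with bars of 1 SE and filled points where the adjusted p was under 0.05. Most points lie left of 0 between MX2 at the top and IFITM3 at the bottom, and the dotted lines mark the fold minimum of 1 on the log2 scale.

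Of the 3 members that act in the nucleus as transcription factors, STAT2 and IRF9 fell in both clones and IRF7 passed in neither. STAT2, a subunit of the ISRE-binding complex, fell to 75.6% of WT in KO clone 1 and 85.0% in KO clone 2. It averaged 22.3 ± 1.0 CPM in KO clone 1, 25.1 ± 1.1 CPM in KO clone 2 and 29.5 ± 1.5 CPM in WT (SD, n = 3 each). IRF9, which gives that complex its DNA contact, averaged 6.75 ± 0.34 CPM in KO clone 1, 8.08 ± 1.0 CPM in KO clone 2 and 9.59 ± 0.45 CPM in WT. Its log2 fold changes were -0.51 ± 0.10 and -0.25 ± 0.095 (edgeR adjusted p = 6.08e-05 and 0.0435). An unnamed gene on the same strand overlaps 23.9% of the exon bases of IRF9, and 15.4% of its 100-base windows are shared. The fall of IRF9 in KO clone 2 no longer passed in 6 of 17 alternative settings, over which its adjusted p ranged between 0.0077 and 0.245. Among them were leaving out KO clone 2 replicate 2 or 3 and WT replicate 1 or 2. IRF7, the factor that amplifies interferon production, averaged 5.51 ± 0.88 CPM in KO clone 1, 5.42 ± 0.50 CPM in KO clone 2 and 5.17 ± 0.28 CPM in WT. It did not pass in either clone (edgeR adjusted p = 0.573 and 0.729).

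The guanylate-binding proteins, large GTPases that coat intracellular pathogens and are strongly induced by interferon gamma, fell together. All 4 members, which lie side by side on chromosome 1 (GBP1 at chr1:89051882-89065360 and GBP5 at chr1:89256189-89272860, GRCh38), fell in both clones, and all 4 fell further in KO clone 1. GBP1 had 26.1, 24.1 and 26.2 CPM in KO clone 1, 40.5, 45.3 and 42.3 CPM in KO clone 2, and 91.9, 96.1 and 99.1 CPM in WT. Its KO levels were 26.6% and 44.6% of WT, with no overlap between any of the groups, and the log2 fold changes were -1.91 ± 0.048 and -1.16 ± 0.044 (edgeR adjusted p = 1.15e-30 and 2.82e-24). GBP2 had 49.6, 47.4 and 46.8 CPM in KO clone 1, 67.5, 69.5 and 67.9 CPM in KO clone 2, and 105, 108 and 107 CPM in WT. GBP4 was the least changed of the 4 members. It had 94.1, 99.4 and 96.5 CPM in KO clone 1, 127, 134 and 135 CPM in KO clone 2, and 167, 165 and 165 CPM in WT. In both genes the groups stood in the order KO clone 1, KO clone 2, WT without overlap. Their log2 fold changes were -1.15 ± 0.038 and -0.64 ± 0.037 for GBP2 and -0.78 ± 0.033 and -0.33 ± 0.032 for GBP4. GBP5, an activator of inflammasome signalling, had 81.9, 82.9 and 78.2 CPM in KO clone 1, 115, 116 and 118 CPM in KO clone 2, and 175, 178 and 173 CPM in WT. It fell, with a log2 fold change of -1.12 ± 0.033 in KO clone 1 and -0.59 ± 0.032 in KO clone 2. Its difference between the clones, 0.52 ± 0.033 higher in KO clone 2, had the smallest adjusted p of any member in that comparison (3.31e-16, edgeR). Across these 4 members the difference between the clones ran from 0.45 in GBP4 to 0.75 in GBP1. In 2 relatives outside the member list the clones were not distinguished. GBP3 differed by 0.003 ± 0.069 (edgeR adjusted p = 0.986), with log2 fold changes of -0.53 in both clones. GBP6, which was near the limit of detection, differed by 0.11 ± 0.50 (adjusted p = 0.912). GBP2 shares 7.21% of its 100-base windows with GBP7, and 0.867% or less of the windows of the other 3 GBP members are shared with another gene.

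**Figure D3:**
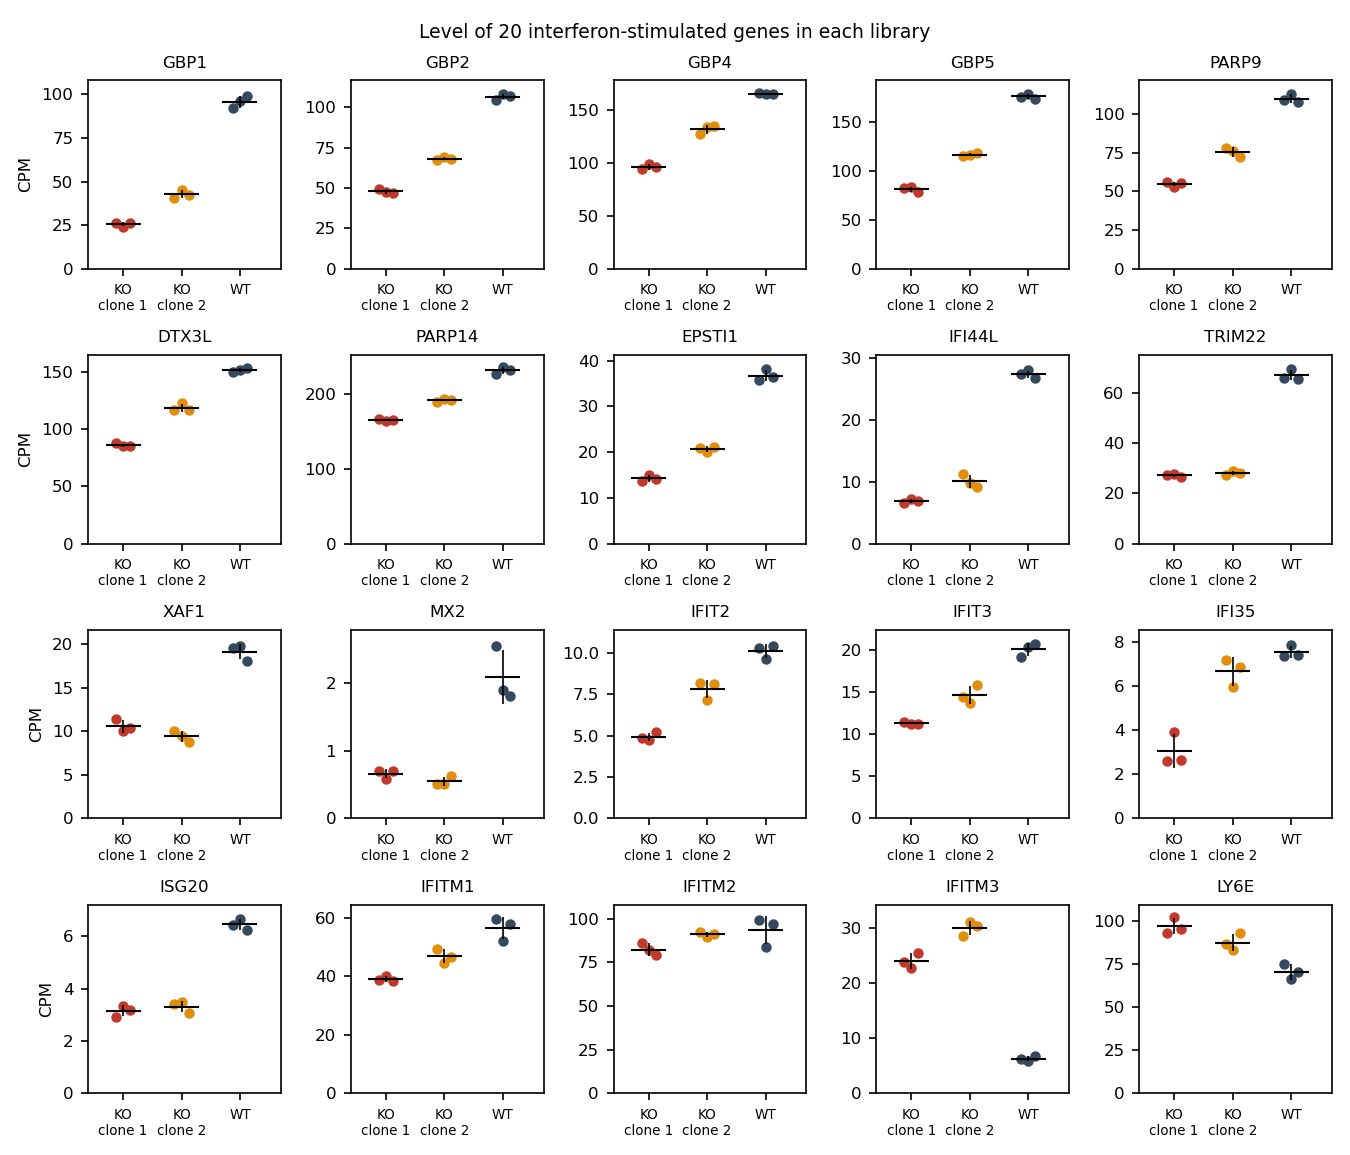
CPM of 20 members in each library, with KO clone 1 (red), KO clone 2 (orange) and WT (dark blue); each point is a library, and the lines are the mean and 1 SD over the 3 libraries. GBP1, GBP2, GBP4, GBP5, PARP9, DTX3L and EPSTI1 stand in the order KO clone 1, KO clone 2, WT, while IFITM3 and LY6E are higher in both clones than in WT.

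The MX proteins, dynamin-like GTPases that trap viral nucleocapsids, also fell, from low levels. MX2, which blocks nuclear entry of HIV, had 0.695, 0.590 and 0.706 CPM in KO clone 1, 0.509, 0.507 and 0.631 CPM in KO clone 2, and 2.56, 1.90 and 1.82 CPM in WT. All KO libraries lay below WT, at 31.7% and 26.2% of WT on average. The log2 fold changes were -1.66 ± 0.24 and -1.92 ± 0.24 (edgeR adjusted p = 3.06e-07 and 9.35e-09). The clones were not distinguished (difference -0.26 ± 0.29, adjusted p = 0.569). MX1, its neighbour on chromosome 21, averaged 3.06 ± 0.32 CPM in KO clone 1, 2.84 ± 0.46 CPM in KO clone 2 and 4.95 ± 0.16 CPM in WT. It fell in both clones, with log2 fold changes of -0.70 ± 0.14 and -0.80 ± 0.13.

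The IFIT genes, whose products bind foreign RNA, lie together on chromosome 10 and did not move as a unit. IFIT2 had 4.87, 4.72 and 5.19 CPM in KO clone 1, 8.15, 7.15 and 8.11 CPM in KO clone 2, and 10.3, 9.60 and 10.4 CPM in WT. IFIT3 had 11.5, 11.2 and 11.2 CPM in KO clone 1, 14.4, 13.8 and 15.9 CPM in KO clone 2, and 19.2, 20.3 and 20.7 CPM in WT. Both fell in both clones and more in KO clone 1, with no overlap between the groups. The log2 fold changes were -1.04 ± 0.10 and -0.37 ± 0.093 for IFIT2 and -0.83 ± 0.074 and -0.45 ± 0.070 for IFIT3. The call of IFIT2 in KO clone 1 rests on the counting by strand. Without regard to strand its log2 fold change was -0.96, under the fold minimum. An unnamed gene on the same strand overlaps 12.1% of the exon bases of IFIT2, and 6.28% of its 100-base windows are shared. IFIT5 had 27.1, 28.6 and 27.8 CPM in KO clone 1, 25.6, 26.3 and 26.4 CPM in KO clone 2, and 28.8, 29.4 and 34.5 CPM in WT. All 6 KO libraries lay a little below WT. IFIT5 passed the test in KO clone 2 (-0.24 ± 0.059, edgeR adjusted p = 0.00132) but not in KO clone 1 (-0.14 ± 0.060, adjusted p = 0.0583). The clones were not distinguished from each other (adjusted p = 0.269). The values of IFIT5 depended on the WT libraries, of which replicate 3 was the highest. In KO clone 1 its adjusted p was 0.0198 without WT replicate 1, 0.0317 without WT replicate 2 and 0.503 without WT replicate 3, where the log2 fold change was -0.061. Without WT replicate 3 the fall in KO clone 2 was -0.16 (adjusted p = 0.045, edgeR), and that in the mean of both clones did not pass (0.127, against 0.00259 with all libraries). IFIT1, which recognises RNA caps that lack methylation, had 2.05, 1.52 and 2.55 CPM in KO clone 1, 1.75, 2.08 and 1.85 CPM in KO clone 2, and 1.77, 2.19 and 2.28 CPM in WT. Its libraries overlapped between all groups, and its log2 fold changes, -0.03 ± 0.19 and -0.14 ± 0.18, were smaller than their errors.

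The IFITM genes encode small membrane proteins that block the fusion of viruses with endosomes, and they split. IFITM3 had 23.9, 22.8 and 25.6 CPM in KO clone 1, 28.7, 31.2 and 30.5 CPM in KO clone 2, and 6.31, 5.90 and 6.75 CPM in WT. It rose to 381% and 477% of WT, and every KO library was above every WT library by a wide margin. The log2 fold changes were 1.93 ± 0.075 and 2.26 ± 0.073 (edgeR adjusted p = 3.94e-24 and 9.5e-27). IFITM1, which lies next to it on chromosome 11 (chr11:310041-315272 against chr11:319676-329475, GRCh38), had 38.7, 40.1 and 38.4 CPM in KO clone 1, 49.3, 44.6 and 46.6 CPM in KO clone 2, and 59.5, 52.2 and 57.7 CPM in WT. It fell in both clones, with log2 fold changes of -0.53 ± 0.049 and -0.27 ± 0.047, and each KO library was below each WT library. IFITM2 had 86.2, 81.9 and 79.0 CPM in KO clone 1, 92.7, 89.6 and 91.1 CPM in KO clone 2, and 99.5, 84.1 and 97.1 CPM in WT. It fell slightly in KO clone 1 (-0.18 ± 0.048, adjusted p = 0.00379) and did not pass in KO clone 2 (-0.04 ± 0.047, adjusted p = 0.63), where its libraries lay within the WT range. Without WT replicate 2 it passed there too (adjusted p = 0.0274, edgeR). All 3 were higher in KO clone 2 than in KO clone 1, by 0.26 for IFITM1, 0.15 for IFITM2 and 0.32 for IFITM3. The difference of IFITM2 was lost without KO clone 1 replicate 2 or 3 or KO clone 2 replicate 1 or 3 (adjusted p up to 0.128). The opposite directions of IFITM1 and IFITM3 held in all 17 alternative settings of each clone. The 3 genes share stretches of sequence with each other and with an unnamed gene. That gene overlaps 21.1% of the exon bases of IFITM1 on the same strand. In all, 17.9% of the 100-base windows of IFITM1, 6.81% of those of IFITM2 and 8.26% of those of IFITM3 occur in another gene, so reads there cannot be assigned with certainty. Per kilobase of exon, WT cells held 58.3 CPM of IFITM2, 33.9 of IFITM1 and 2.22 of IFITM3. IFITM3 reached 8.47 in KO clone 1 and 10.6 in KO clone 2, the lowest of the 3 in each group.

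The OAS enzymes sense double-stranded RNA and make the oligoadenylates that activate RNase L, and their changes were small. OAS1 had 1.39, 1.68 and 1.84 CPM in KO clone 1, 1.53, 1.68 and 1.50 CPM in KO clone 2, and 2.19, 2.29 and 2.10 CPM in WT. OAS2 had 24.6, 26.3 and 24.5 CPM in KO clone 1, 19.8, 17.9 and 20.7 CPM in KO clone 2, and 23.7, 23.1 and 21.9 CPM in WT. OAS3 had 30.3, 32.2 and 30.4 CPM in KO clone 1, 27.4, 26.5 and 26.7 CPM in KO clone 2, and 29.4, 29.9 and 30.2 CPM in WT. None of the 3 passed in KO clone 1, where OAS2 and OAS3 were at 109.6% and 104% of WT. All 3 fell in KO clone 2, with log2 fold changes of -0.49 ± 0.18, -0.24 ± 0.064 and -0.15 ± 0.053 (edgeR adjusted p = 0.0302, 0.00334 and 0.0251). The difference between the clones passed for OAS2 (-0.37 ± 0.064, adjusted p = 1.81e-05) and OAS3 (-0.20 ± 0.054, adjusted p = 0.00314) and not for OAS1 (adjusted p = 0.838). The falls in KO clone 2 were fragile. OAS1 no longer passed in 7 of 17 alternative settings (adjusted p up to 0.110), among them without KO clone 2 replicate 1 or 3 and without WT replicate 1 or 2. OAS3 did not pass without KO clone 2 replicate 2 or 3 or WT replicate 2 or 3 (up to 0.0828), and OAS2 without KO clone 2 replicate 2 (0.0515). OASL, the catalytically inactive relative, was too low to test, with 0, 0.124 and 0.0307 CPM in KO clone 1, 0.0727, 0.107 and 0.117 CPM in KO clone 2, and 0.183, 0.341 and 0.339 CPM in WT. All 6 KO libraries of OASL lay below the WT libraries. In the authors' deposited table, which sets both clones together against WT, its log2 fold change was -1.92 (DESeq2 adjusted p = 0.0262). That table holds counts made without regard to strand.

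PARP9 and PARP14 are ADP-ribosyltransferase family proteins with macrodomains, and DTX3L is the ubiquitin ligase that works as a complex with PARP9. PARP9 had 55.9, 53.0 and 55.3 CPM in KO clone 1, 78.1, 75.9 and 72.0 CPM in KO clone 2, and 109, 113 and 108 CPM in WT. PARP14 had 167, 164 and 165 CPM in KO clone 1, 190.4, 193 and 192 CPM in KO clone 2, and 227, 237 and 233 CPM in WT. All KO libraries lay below WT and KO clone 1 below KO clone 2, with log2 fold changes of -1.01 ± 0.039 and -0.55 ± 0.037 for PARP9 and -0.49 ± 0.029 and -0.28 ± 0.028 for PARP14. DTX3L starts beside PARP9 on the other strand (chr3:122564338-122575203 against chr3:122527924-122564577, GRCh38), and 139 bases of their exons overlap. It averaged 86.2 ± 1.4 CPM in KO clone 1, 119 ± 3.6 CPM in KO clone 2 and 152 ± 1.8 CPM in WT. DTX3L fell in both clones, with log2 fold changes of -0.82 ± 0.033 and -0.35 ± 0.032. PARP9 was just past the fold minimum in KO clone 1, and was no longer past it without KO clone 1 replicate 2 or without WT replicate 2, with -0.98 as the value nearest 0.

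ISG15, the ubiquitin-like protein that is attached to other proteins after interferon, averaged 3.51 ± 0.72 CPM in KO clone 1, 3.98 ± 0.57 CPM in KO clone 2 and 6.27 ± 0.20 CPM in WT. It fell in both clones, with log2 fold changes of -0.83 ± 0.13 and -0.66 ± 0.13. Without KO clone 1 replicate 2 its value in KO clone 1 was past the fold minimum (-1.01). HERC6, a relative of its ligase, fell in both, with -0.26 ± 0.072 and -0.30 ± 0.070, and its fall in KO clone 1 did not pass on counts without regard to strand (adjusted p = 0.077, edgeR). HERC5, the main human ISG15 ligase, averaged 18.5 ± 0.62 CPM in KO clone 1, 18.2 ± 0.32 CPM in KO clone 2 and 16.6 ± 0.60 CPM in WT. All 6 KO libraries were slightly above WT, and HERC5 passed in neither clone (edgeR adjusted p = 0.067 and 0.126). USP18, which removes ISG15 and restrains the type I receptor, averaged 2.48 ± 0.33 CPM in KO clone 1, 2.98 ± 0.63 CPM in KO clone 2 and 2.85 ± 0.69 CPM in WT. Its libraries overlapped between the groups, and 15.5% of its windows occur in other genes. In the mean of both clones HERC5 passed at 0.14 ± 0.058 (adjusted p = 0.0466), which 11 of 16 alternative settings did not keep. They included leaving out any of the libraries except KO clone 1 replicate 2 and WT replicate 3 (adjusted p up to 0.166, edgeR).

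RSAD2, which encodes viperin, an enzyme that makes a chain-terminating nucleotide, was one of the most abundant members and fell slightly, while its neighbour CMPK2, a mitochondrial nucleotide kinase, did not fall. RSAD2 averaged 241 ± 3.7 CPM in KO clone 1, 249 ± 5.1 CPM in KO clone 2 and 290.2 ± 9.4 CPM in WT. Both clones were lower, with every KO library below every WT library and log2 fold changes of -0.26 ± 0.033 and -0.22 ± 0.033. CMPK2 averaged 149 ± 6.3 CPM in KO clone 1, 121 ± 2.5 CPM in KO clone 2 and 120.3 ± 2.7 CPM in WT. It rose in KO clone 1 (0.31 ± 0.034, edgeR adjusted p = 4.01e-10) and lay close to WT in KO clone 2 (0.01 ± 0.034, adjusted p = 0.8). The clones differed by -0.30 ± 0.034 (adjusted p = 3.41e-09). The 2 genes run in opposite directions on chromosome 2, and 351 bases of their exons overlap, which are 8.0% of the exon bases of CMPK2 and 6.20% of those of RSAD2.

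IFI44L and IFI44, paired genes on chromosome 1 with little known enzymatic function, differed in size of change. IFI44L had 6.62, 7.26 and 6.93 CPM in KO clone 1, 11.2, 9.85 and 9.12 CPM in KO clone 2, and 27.3, 27.9 and 26.7 CPM in WT. It stood at 25.4% and 36.8% of WT, without overlap between groups, with log2 fold changes of -1.97 ± 0.081 and -1.44 ± 0.075 (edgeR adjusted p = 2.4e-23 and 9.41e-20). IFI44 averaged 23.0 ± 1.5 CPM in KO clone 1, 19.7 ± 0.85 CPM in KO clone 2 and 24.8 ± 0.80 CPM in WT. It fell in KO clone 2 (-0.33 ± 0.063, adjusted p = 4.28e-05) and did not pass in KO clone 1 (-0.11 ± 0.063, adjusted p = 0.194). SAMD9 and SAMD9L, neighbouring growth-restraining genes on chromosome 7, fell in both clones, with log2 fold changes of -0.20 ± 0.045 and -0.35 ± 0.044 for SAMD9 and of -0.67 ± 0.048 and -0.59 ± 0.047 for SAMD9L. IFI6, a small membrane protein, averaged 2.65 ± 0.086 CPM in KO clone 1, 2.91 ± 0.41 CPM in KO clone 2 and 3.13 ± 0.32 CPM in WT. Its KO clone 1 libraries lay below WT and those of KO clone 2 overlapped WT, and it passed in neither clone. LINC02574 on the same strand overlaps 23.1% of the exon bases of IFI6, and 10.7% of its 100-base windows are shared. IFI27 had a low level, 1.94 ± 0.33 CPM in KO clone 1, 0.839 ± 0.22 CPM in KO clone 2 and 1.54 ± 0.30 CPM in WT. It fell in KO clone 2 (-0.86 ± 0.23, adjusted p = 0.00295) but not in KO clone 1 (0.34 ± 0.21, adjusted p = 0.223). Without KO clone 2 replicate 1 its fall was past the fold minimum (-1.11).

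Among the remaining effectors, 6 of 7 fell in KO clone 1 (85.7%, against 18.8% of all genes) and 5 of 7 in KO clone 2 (71.4%, against 16.1%). TRIM22, a ubiquitin ligase that restricts HIV transcription, had 27.3, 27.6 and 26.5 CPM in KO clone 1, 27.3, 28.8 and 28.2 CPM in KO clone 2, and 66.0, 69.5 and 65.8 CPM in WT. The clones stood at 40.4% and 41.9% of WT, with log2 fold changes of -1.31 ± 0.047 and -1.26 ± 0.046, and the clones were not distinguished (0.05 ± 0.050, edgeR adjusted p = 0.513). EPSTI1, an interferon-induced gene named for epithelial and stromal interaction, had 13.7, 15.1 and 14.1 CPM in KO clone 1, 20.9, 19.9 and 21.2 CPM in KO clone 2, and 35.7, 38.1 and 36.5 CPM in WT. Its log2 fold changes were -1.36 ± 0.062 in KO clone 1 and -0.83 ± 0.058 in KO clone 2, again with the groups apart in the order KO clone 1, KO clone 2, WT. XAF1, which antagonises the apoptosis inhibitor XIAP, had 11.4, 9.99 and 10.4 CPM in KO clone 1, 10.1, 9.45 and 8.77 CPM in KO clone 2, and 19.6, 19.8 and 18.1 CPM in WT. All KO libraries lay below WT, with log2 fold changes of -0.86 ± 0.080 and -1.03 ± 0.079. Its call in KO clone 2 was lost without KO clone 2 replicate 3 and on counts without regard to strand, with -0.97 as the value nearest 0. PRAL, on the other strand, overlaps 38.3% of its exon bases. ISG20, an exonuclease that degrades viral RNA, had 2.93, 3.35 and 3.19 CPM in KO clone 1, 3.39, 3.50 and 3.06 CPM in KO clone 2, and 6.44, 6.68 and 6.26 CPM in WT. The clones overlapped and lay below WT, with log2 fold changes of -1.03 ± 0.12 and -0.96 ± 0.12. It dropped under the fold minimum in KO clone 1 without KO clone 1 replicate 1 (-0.98), and just passed it in KO clone 2 without KO clone 2 replicate 2.

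IFI35, a partner of the signalling protein NMI, had 2.60, 3.94 and 2.64 CPM in KO clone 1, 7.20, 5.95 and 6.85 CPM in KO clone 2, and 7.38, 7.87 and 7.40 CPM in WT. KO clone 1 lay far below WT (-1.30 ± 0.13) while KO clone 2 was just below it (-0.18 ± 0.11, edgeR adjusted p = 0.265). BST2, the tetherin that holds budding virions at the cell surface, averaged 44.5 ± 2.1 CPM in KO clone 1, 61.5 ± 6.2 CPM in KO clone 2 and 78.2 ± 1.5 CPM in WT. The fall was seen in both clones (-0.81 ± 0.055 and -0.35 ± 0.052). LY6E, a surface protein that restricts coronavirus entry, averaged 97.3 ± 4.8 CPM in KO clone 1, 87.7 ± 5.0 CPM in KO clone 2 and 70.7 ± 4.5 CPM in WT. It rose in both (0.46 ± 0.046 and 0.31 ± 0.046), with all 6 KO libraries above WT. Per kilobase of exon, BST2 was the most abundant member in WT at 71.0 CPM, followed by IFITM2 at 58.3 and RSAD2 at 51.3, and the median over the 42 members was 3.91, with 8 members under 1.

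The clones were then compared with each other, a comparison that does not use the WT libraries as a reference. Of the 41 members, 17 were higher in KO clone 2 than in KO clone 1 (41.5%, against 13.4% of all genes tested) and 7 were lower (17.1%, against 12.6%), with a median log2 difference of 0.13. Among the 25 members that fell in both clones, 14 were higher in KO clone 2, 1 was lower (SAMD9) and 10 did not pass. The 14 were all 4 GBP genes, IFIT2, IFIT3, IFITM1, PARP9, PARP14, DTX3L, STAT2, IFI44L, BST2 and EPSTI1. OAS2, OAS3, CMPK2, IFI27, IFI44 and LY6E were, with SAMD9, the 7 members lower in KO clone 2. Some of these differences were small enough to be lost when 1 library was left out. That of STAT2 was lost without replicate 1 or 2 of either clone (adjusted p up to 0.168, edgeR) and that of IFITM2 as given above. That of SAMD9 was lost without KO clone 1 replicate 1 or 3 or KO clone 2 replicate 2 (up to 0.0751). That of LY6E was lost without KO clone 1 replicate 2 or KO clone 2 replicate 1 or 2 (up to 0.0906) and that of IFI44 without KO clone 1 replicate 3 (0.0983). With the fold minimum, IFI35 was called higher in KO clone 2 (1.12 ± 0.13, 2.44% of the members tested, against 1.58% of all genes) and IFI27 lower (-1.21 ± 0.23, 2.44%, against 1.23%).

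**Figure D4:**
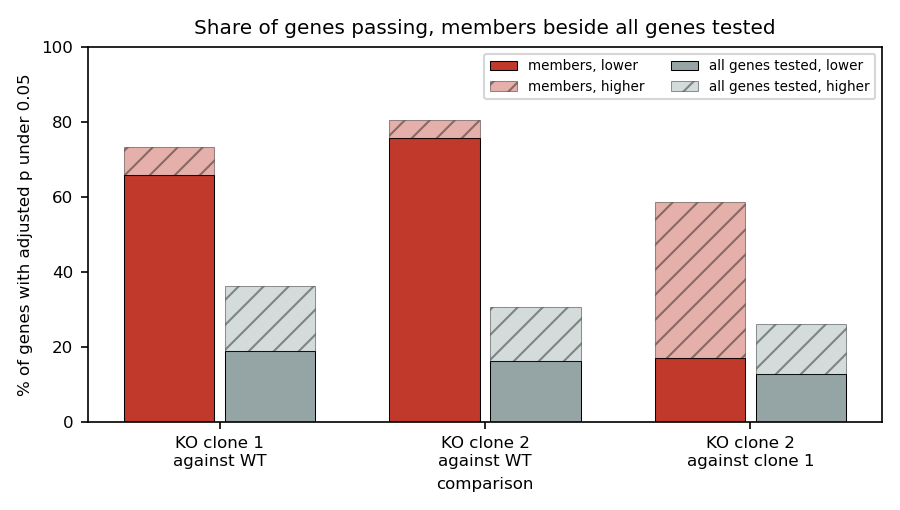
Percentage of genes with an adjusted p under 0.05, lower (plain) or higher (hatched), among the 41 tested members (red) and among all 20655 genes tested (grey), in KO clone 1 against WT, KO clone 2 against WT and KO clone 2 against KO clone 1. The lower share of members is 65.9% and 75.6% against WT, beside 18.8% and 16.1% of all genes.

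Members with and without an ISRE core included genes that fell in both clones. Of the 21 members with an ISRE core in the window, 13 fell in both clones and 1 rose in both (IFITM3), where 11.0% of all genes fell and 8.52% rose in both. Of the rest, 4 passed in 1 clone and 3 passed in neither (IFIT1, HERC5 and IFI6). Of the 10 tested members with a promoter and no core in these 250 bases, 7 fell in both clones (GBP4, DTX3L, HERC6, STAT2, IRF9, SAMD9L and XAF1), again beside 11.0% of all genes, and 3 passed in 1 clone. Of the 9 with the GAS letters, 6 fell in both clones (IFITM1, PARP14, MX1, IRF9, BST2 and EPSTI1), beside the same 11.0%, and 3 passed in 1. A match is a description of these letters, not of a bound site.

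Other genes of the pathway were read from 6 lists chosen with earlier results of these data known, by the mean of the clones over WT. The p-values of that mean do not cover the spread between the clones. Of 10 interferon genes, IFNL1 alone had enough counts to be tested. It had 0.293, 0.186 and 0.184 CPM in KO clone 1, 0.170, 0.187 and 0.327 CPM in KO clone 2, and 0.313, 0.536 and 0.462 CPM in WT. The change of -0.96 ± 0.38 passed at an adjusted p of 0.0433 (edgeR), which 10 of 15 alternative settings did not keep. Among them were leaving out KO clone 1 replicate 2 or 3, KO clone 2 replicate 1 or 2, or WT replicate 2 or 3 (adjusted p up to 0.227, edgeR). Of 9 receptor chains and kinases, 8 were tested. Of these 5 fell (62.5%, against 18.9% of all genes) and 1 rose (12.5%, against 16.4%). IFNGR2, a chain of the interferon gamma receptor, changed by -0.36 ± 0.048. IFNAR1, a chain of the type I receptor, changed by -0.22 ± 0.033, and the kinases JAK1 and TYK2 by -0.22 ± 0.030 and -0.18 ± 0.028. IFNAR2 was the fifth that fell (-0.24 ± 0.068) and JAK2 the one that rose (0.11 ± 0.043). IFNAR2, IFNAR1 and IFNGR2 lie close together on chromosome 21 (chr21:33205282-33265675, chr21:33324387-33359864 and chr21:33403413-33479348, GRCh38). Their falls may therefore not be independent. IL10RB, which lies among them, did not pass (-0.27 ± 0.14, edgeR adjusted p = 0.139). The part of this shared position in the falls was not tested.

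Of 9 STAT and IRF factors outside the member list, 8 were tested. Again 5 fell (62.5%, against 18.9% of all genes) and 1 rose (12.5%, against 16.4%). IRF1, a factor that drives the GBP genes, had 58.8, 63.5 and 64.9 CPM in KO clone 1, 80.3, 78.6 and 82.5 CPM in KO clone 2, and 107, 112 and 105 CPM in WT. The groups stood in the order KO clone 1, KO clone 2, WT without overlap, with log2 fold changes of -0.79 ± 0.039 and -0.43 ± 0.038. IRF3, the sensor-activated factor, changed by -0.23 ± 0.040 in the mean of both clones, and IRF2, a relative that competes with IRF1 for its sites, by -0.23 ± 0.054. IRF2BP1, a corepressor of IRF2, rose by 0.22 ± 0.042. IRF4 was barely expressed (0.578 CPM in KO clone 1, 0.326 CPM in KO clone 2 and 0.720 CPM in WT). It was called lower in KO clone 2 (-1.16 ± 0.35), and the call was lost without KO clone 2 replicate 3 or WT replicate 2 (adjusted p up to 0.0834, edgeR).

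**Figure D5:**
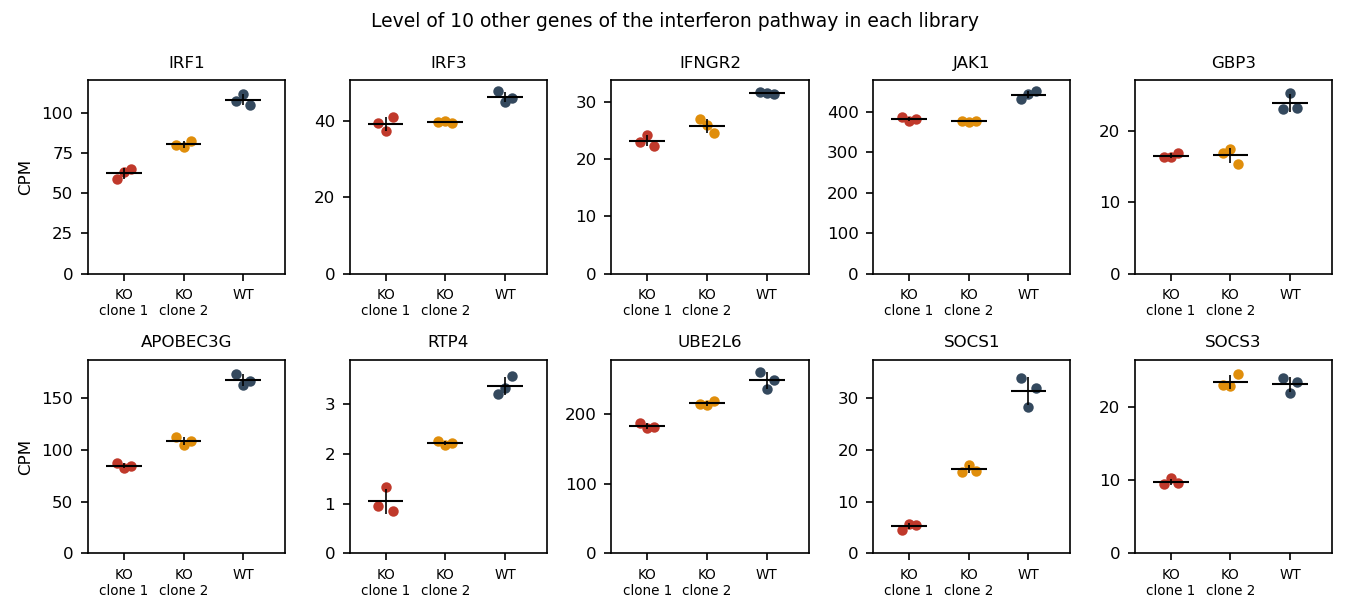
CPM of 10 further genes of the interferon pathway in each library, with KO clone 1 (red), KO clone 2 (orange) and WT (dark blue); each point is a library, and the lines are the mean and 1 SD over the 3 libraries. IRF1, APOBEC3G, RTP4, UBE2L6 and SOCS1 stand in the order KO clone 1, KO clone 2, WT, and SOCS3 is low in KO clone 1 alone.

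Of 18 relatives of the member families, 14 were tested. Of these 9 fell (64.3%, against 18.9% of all genes) and 1 rose (7.14%, against 16.4%), the antiviral ZC3HAV1 (0.07 ± 0.029). GBP3 changed by -0.53 ± 0.057 and TRIM21, an antibody receptor in the cytosol, by -0.53 ± 0.048, while PARP10 changed by -0.46 ± 0.051 and the DNA sensor IFI16 by -0.18 ± 0.031. GBP6 was near the limit of detection (0.207 CPM in KO clone 1, 0.223 CPM in KO clone 2 and 0.528 CPM in WT). It was called lower in both clones (-1.34 ± 0.44 and -1.23 ± 0.41). The calls were lost on counts without regard to strand, with adjusted p up to 0.104 over the settings. That in KO clone 1 was also lost without KO clone 1 replicate 3 or WT replicate 2, and that in KO clone 2 without KO clone 2 replicate 1 or WT replicate 2 or 3.

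Of 24 ISG15 conjugation partners and further effectors, 23 were tested. Among them 15 fell (65.2%, against 18.9% of all genes) and 1 rose (4.35%, against 16.4%), SHISA5 (0.11 ± 0.032). APOBEC3G, a deaminase that mutates retroviral DNA, had 87.5, 82.0 and 84.7 CPM in KO clone 1, 113, 105 and 108 CPM in KO clone 2, and 174, 162 and 166 CPM in WT. It fell in both clones (-0.98 ± 0.036 and -0.62 ± 0.035). Without KO clone 1 replicate 1 or WT replicate 2 its fall in KO clone 1 was past the fold minimum (-1.01). UBE2L6, the enzyme that conjugates ISG15, had 187, 179.7 and 181 CPM in KO clone 1, 214, 212 and 218 CPM in KO clone 2, and 260.1, 236 and 248 CPM in WT. It fell in both (-0.44 ± 0.033 and -0.21 ± 0.032). APOBEC3F and the RNA-activated kinase EIF2AK2 changed in the mean of both clones by -0.53 ± 0.046 and -0.29 ± 0.027. RTP4, a chaperone that suppresses viral replication, had 0.952, 1.33 and 0.859 CPM in KO clone 1, 2.25, 2.19 and 2.22 CPM in KO clone 2, and 3.21, 3.34 and 3.57 CPM in WT. It was called lower in KO clone 1 (-1.68 ± 0.18) and in the mean of both clones (-1.14 ± 0.14). LGALS3BP, a secreted glycoprotein, averaged 0.716 CPM in KO clone 1, 1.33 CPM in KO clone 2 and 2.01 CPM in WT. It was called lower in KO clone 1 (-1.48 ± 0.24) and in the mean (-1.03 ± 0.19). The call in the mean was lost without KO clone 1 replicate 2, KO clone 2 replicate 2 or WT replicate 3, with -0.88 as the value nearest 0.

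Of the 10 negative regulators, all tested, 3 fell (SOCS1, SOCS3 and PTPN2) and 3 rose (PTPN6, TRIM27 and PTPN1) in the mean of both clones. Over all genes 18.9% fell and 16.4% rose, and with 10 genes these counts are near those shares. SOCS1, a suppressor that inhibits JAK kinases, had 4.57, 5.71 and 5.52 CPM in KO clone 1, 15.7, 17.2 and 16.0 CPM in KO clone 2, and 33.9, 28.4 and 32.0 CPM in WT. It stood at 16.8% and 51.8% of WT, with log2 fold changes of -2.57 ± 0.084 and -0.95 ± 0.071 (edgeR adjusted p = 1.23e-26 and 1.3e-14). The fall in KO clone 2 passed the fold minimum without WT replicate 2 (-1.02). SOCS3, which acts mainly on STAT3-linked receptors, had 9.44, 10.2 and 9.57 CPM in KO clone 1, 22.9, 22.8 and 24.4 CPM in KO clone 2, and 23.9, 21.9 and 23.3 CPM in WT. It fell in KO clone 1 (-1.24 ± 0.071) and overlapped WT in KO clone 2 (0.02 ± 0.063, adjusted p = 0.856). PTPN6, a phosphatase of blood cells, averaged 3.47 CPM in KO clone 1, 6.12 CPM in KO clone 2 and 2.68 CPM in WT. It was called higher in KO clone 2 (1.20 ± 0.13). Its smaller rise in KO clone 1 (0.38 ± 0.15, adjusted p = 0.0374) did not pass in 6 of 17 alternative settings, among them without KO clone 1 replicate 2 or WT replicate 2 or 3 (adjusted p up to 0.326, edgeR). TRIM27 rose by 0.19 ± 0.029 in the mean of both clones.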

How the data were processed

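RNA was sequenced as paired-end libraries from KG-1a cells, 3 of each PRMT2 KO clone and 3 of WT, grouped by the sample labels. Raw counts (read pairs per gene, 1 file a library) are as the authors deposited them, made with STAR on GRCh38 per the submitters' processing notes; the versions of STAR and of its annotation are not given in the sources used here. The authors also deposited a table of both clones against WT made with DESeq2, whose log2 fold changes and p-values are printed here for OASL alone. Its 9 raw count columns equalled the counting without regard to strand, and 9 other per-sample columns were not used.

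The stranded counting that held 92.0% to 92.3% of stranded counts was used. Counts were tested in R 4.3.3 with edgeR 4.0.16: filterByExpr by group (20655 of 60605 genes kept), trimmed mean of M-values scaling, a quasi-likelihood fit with robust estimation and 1 coefficient per group over all 9 libraries, and Benjamini-Hochberg adjustment over all genes tested. The SE is the size of the log2 fold change over the square root of F and is approximate. Positions come from GENCODE release 44. CPM is the count over the scaled library total. Called means an adjusted p under 0.05 and a log2 fold change of 1 or more in size. The fits were tested on simulated data. DESeq2 1.42.0 was an alternative.

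The members and lists were chosen with earlier results of these data known. Values in every library are given for the members called against WT, for the tested GBP, IFIT, IFITM, OAS and PARP members and for the member with the smallest adjusted p between the clones; from the other lists, the called genes and up to 4 with the smallest adjusted p in the mean of both clones are named. IFNAR2, JAK2, ZC3HAV1, SHISA5, PTPN1, PTPN2, CSF1R and PECAM1 were named after their values were seen. A gene of the STAT and IRF list is not reported here. Shared windows are the stretches of 100 bases of a gene's transcripts that also occur in another gene's.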

Additional observations from a re-analysis of the deposited data

Results flagged for a closer look

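Among the members and pathway lists, 5 genes differed between the clones by an adjusted p under 0.05 in edgeR together with a log2 difference of at least 1, in the test of KO clone 2 against KO clone 1. IFI35 was higher in KO clone 2, with 3.06 ± 0.76 CPM in KO clone 1, 6.67 ± 0.64 CPM in KO clone 2 and 7.55 ± 0.28 CPM in WT (SD, n = 3 each) and a log2 difference of 1.12 ± 0.13 (adjusted p = 7.4e-09), and all 3 libraries of KO clone 2 lay above all 3 of KO clone 1. IFI27 was lower in KO clone 2, with 1.94 ± 0.33 CPM in KO clone 1, 0.839 ± 0.22 CPM in KO clone 2 and 1.54 ± 0.30 CPM in WT and a difference of -1.21 ± 0.23 (adjusted p = 6.17e-05), again without overlap. Outside the member list, SOCS1 differed by 1.62 ± 0.088 (adjusted p = 1.66e-18), SOCS3 by 1.26 ± 0.071 (adjusted p = 5.01e-18) and RTP4 by 1.08 ± 0.19 (adjusted p = 2.55e-05), all higher in 3 of 3 KO clone 2 libraries than in KO clone 1. Without KO clone 1 replicate 3, RTP4 was under the fold minimum, at 0.94.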

How the results depend on the processing

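Alternatives were counting without regard to strand, DESeq2 size factors, no scaling, no filter on low counts, a filter of at least 1 CPM in 3 libraries, DESeq2's test, only the groups compared, the replicate number as a block, and leaving out each library. No result changed direction past the threshold. The counts of members that passed held within 1.5 times: 26 to 29 fell in KO clone 1 and 28 to 32 in KO clone 2. With the filter of 1 CPM fewer genes were tested, and over all genes 323 were called higher and 644 lower in KO clone 1 (537 and 1028 in the report's fit), 245 and 523 in KO clone 2 (379 and 853), 258 and 572 in the mean of both clones (414 and 935), and 207 and 140 between the clones (327 and 255). Without a filter, OASL entered and the median of the members in the mean of both clones was -0.43. Leaving out 1 library gave medians of -0.54 to -0.50 in KO clone 1, -0.35 to -0.33 in KO clone 2, -0.45 to -0.40 in the mean of both clones and 0.11 to 0.14 between the clones, and 10 to 12, 4 to 6, 5 to 7 and 1 member called lower. No pairing by replicate number was seen. The deviations of same-numbered libraries from their group means correlated at -0.0137 to 0.0122 over 9 pairs. Those of differently numbered libraries correlated at -0.0270 to 0.0237 over 18 pairs. These correlations cannot establish how the replicates were made. With the replicate number as a block, 28 members fell in KO clone 1 and 31 in KO clone 2. The 9 libraries limit low genes: 3 counts are 0.0701 to 0.110 CPM, near the level of OASL, IFNL1 and GBP6.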
